A study of Mus musculus with 6 samples.

Results

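The genes described here encode the Nodal and activin signalling pathway of mouse embryonic stem cells: the ligand genes Nodal and Inhbb, the secreted inhibitor genes Lefty1 and Lefty2, the coreceptor gene Tdgf1, the signal transducer gene Smad3, its partner Foxh1, and the feedback inhibitor genes Smad7 and Skil. Every probe that carried one of these 9 gene names in the array files was taken, which gave 13 of 55681 probes. Tdgf1 had 3 probes, Smad3 and Skil 2 each, and the other 6 genes 1 each.

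Nodal and the activins are secreted ligands of the TGF-beta superfamily. They bind paired serine/threonine kinase receptors, Nodal together with the coreceptor Tdgf1 (also called Cripto), and the receptors phosphorylate Smad2 and Smad3, which enter the nucleus with Smad4 and act on target genes with partners such as Foxh1. Nodal, Lefty1, Lefty2, Smad7 and Skil are themselves well-known targets of the pathway, so it holds a positive loop through Nodal and negative loops through the Lefty proteins, Smad7 and Skil. In mouse embryonic stem cells the pathway is active through ligands that the cells make, and it takes part in the exit from naive pluripotency and in the later choice of mesoderm and endoderm.

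The TKO group held 3 dishes of embryonic stem cells with knockouts of Tet1, Tet2 and Tet3, the genes of the enzymes that oxidise 5-methylcytosine, and was derived from the line of the WT group. The WT group held 3 dishes of the unmodified line, named BJ FF2 ES. Per the labels, all dishes were kept in 2i medium, which holds stem cells in the naive state with inhibitors, on mouse embryonic feeder cells, and were moved to feeder-free matrigel before collection, with RNA from 1 dish per array. The labels give neither the altered exons nor the number of TKO clones, so p-values measure only the spread between dishes.

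Levels are log2 of the processed signal relative to the 75th percentile of that array, so 0 is the level of that percentile. A positive difference means a higher level in TKO, and each group held 3 arrays. A probe was called if its Benjamini-Hochberg adjusted p in limma, over all 30735 probes tested, was under 0.05. The 75th percentile lay between 366.9 and 412.9 intensity units, 51.9% to 58.5% of spots were well above background and 0 were saturated. Tet1 RNA was at 38.7% of the WT level in TKO dishes and Tet2 RNA at 13.1% by their brightest probes, while Tet3 differed by -0.24 ± 0.0992 (SE; limma adjusted p = 0.0905). Probes outside the altered parts check nothing about the knockout. All 8 stem cell markers listed, among them Pou5f1, Sox2 and Nanog, were well above background on every array. The summed signal of 9 fibroblast (feeder) markers was 60.2 to 63.1 times the 75th percentile in TKO dishes and 39.8 to 41.1 times in WT dishes. Of these 9, 8 were called higher in TKO and 0 lower, where 29.4% of all tested genes were called higher and 28.9% lower. The largest rise among the 9 was that of Acta2 (2.30-fold), and Dcn was not called (difference -0.15). The fibroblast gene Lum was not well above background on any array. In bulk RNA, fewer cells of a type and less RNA per cell cannot be told apart.

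All 13 probes were tested, and 12 were well above background on all 6 arrays. TKO and WT values did not overlap for 12 of the 13 probes, where 65.8% of all tested probes did not overlap. Of the 13 probes, 12 were called, 7 higher and 5 lower in TKO, against 57.1% of all tested probes called, 28.9% higher and 28.2% lower. By the brightest probe of each gene, the genes Nodal, Lefty1, Lefty2, Foxh1 and Skil rose and Inhbb, Tdgf1, Smad3 and Smad7 fell. A call was thus common among all probes. By the brightest probe, 5 of the 9 genes were called at 2-fold or more (3 higher and 2 lower), and 13.6% of all tested genes (14% of all tested probes) were called at that size. With the mean of each gene's probes the count was 4 (3 higher and 1 lower), since the Tdgf1 probes disagree. Array row 1 of the slide held TKO replicate 1 and all 3 WT arrays. Within that row Nodal differed by 1.75, Inhbb by -3.90, Lefty1 by 2.96, Lefty2 by 1.95, Foxh1 by 0.72 and Smad7 by -0.95. The brightest Smad3 probe differed by -0.18 there, against -0.35 over all 6 arrays. With 1 TKO array, the row measures no spread between TKO dishes. SDs within a group ran from 0.00332 to 0.413 on the log2 scale, and the widest belonged to a dim Smad3 probe.

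**Figure D1:**
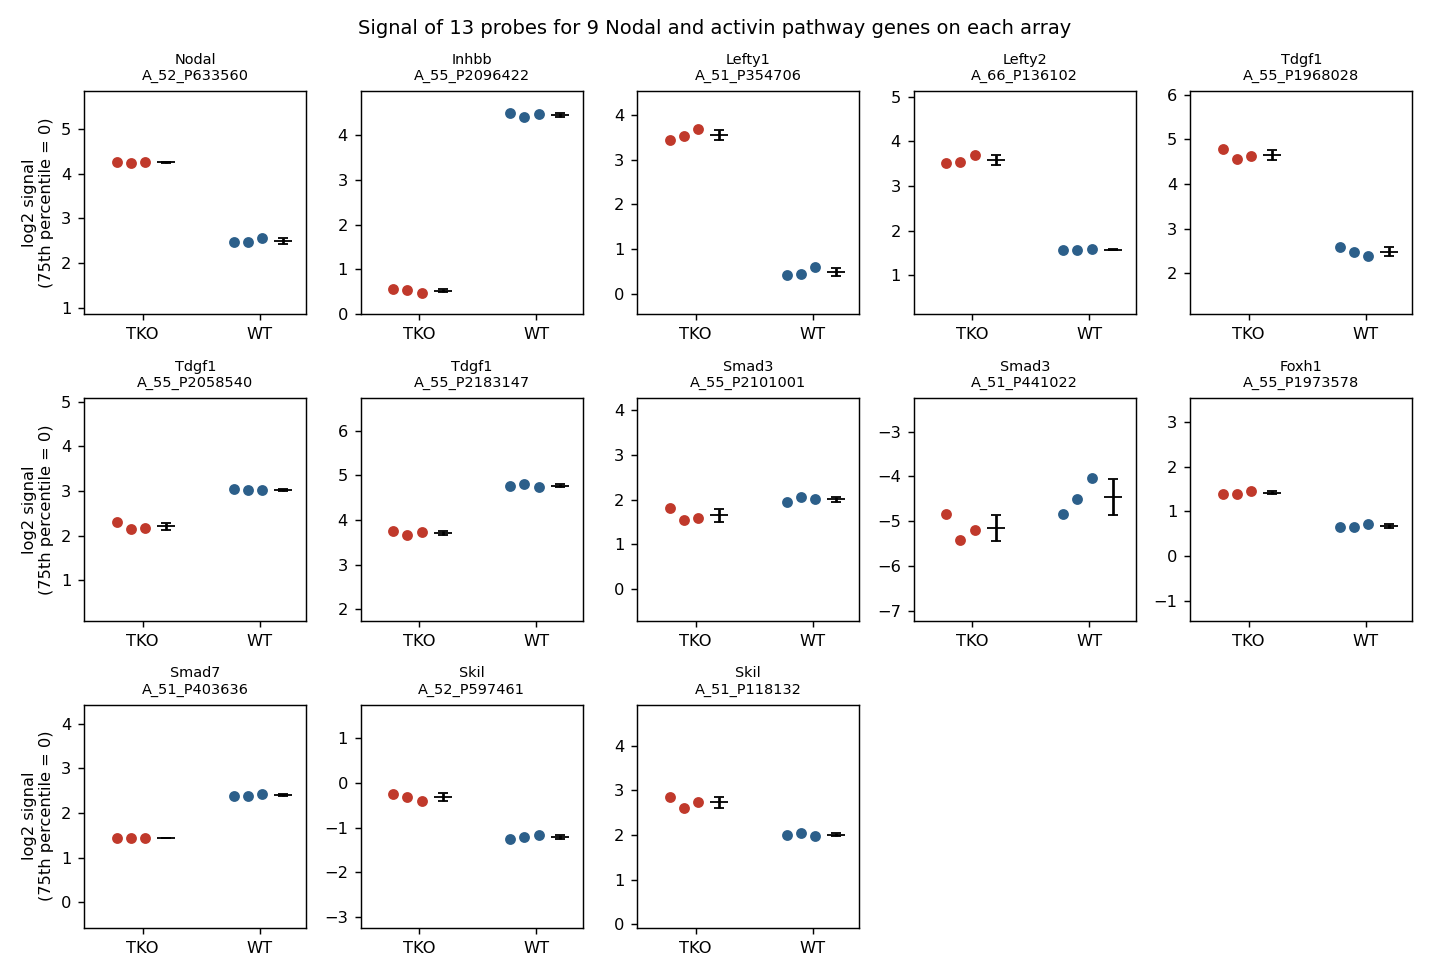
Log2 signal relative to the 75th percentile of the array (y axis) for each of the 13 probes, with 3 TKO arrays in red and 3 WT arrays in blue. The bar beside each group is its mean with SD. The y axes span equal ranges but start at different levels. Nodal and both Lefty probes lie higher in TKO, Inhbb lies lower, and the 3 Tdgf1 probes do not move the same way.

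The ligand genes went in opposite directions. Nodal (probe A_52_P633560) read 4.25, 4.24 and 4.27 in the TKO dishes, against 2.46, 2.46 and 2.57 in the WT dishes. All TKO values lay above all WT values, and the difference of 1.75 ± 0.0471 (SE; limma adjusted p = 6.16e-06) made Nodal RNA 3.37-fold higher in TKO. Inhbb, the gene of the activin beta B subunit, whose dimer is activin B, moved furthest of the 9 genes. Its probe (A_55_P2096422) read 0.55, 0.53 and 0.48 in TKO dishes and 4.49, 4.40 and 4.48 in WT dishes. Inhbb RNA was thus 15.3-fold lower in TKO, at 6.54% of the WT level (difference -3.93 ± 0.0457 SE, limma adjusted p = 1.4e-06), and it remained well above background on all 3 TKO arrays. The first 30 bases of both probes are shown to identify the transcripts read, Nodal on chromosome 10 (60887790 to 60887849, plus strand) and Inhbb on chromosome 1 (121312160 to 121312219, minus strand), both on mouse build mm9.
Nodal probe: ttattagattataaacgagccatttggttc
Inhbb probe: tgactggtggagtgaaggtgtgtgctgtaa

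The sequences upstream of the ligand genes differ in CG dinucleotides, the sites at which the Tet enzymes act when the cytosine is methylated. RefSeq (build GRCm38.p6) gave promoters for 4 of the 9 genes (Nodal, Inhbb, Tdgf1 and Smad3). In the 250 bases before the start, Nodal held 3 CG dinucleotides, more than 29.0% of 32851 promoters, and Inhbb held 21, more than 83.7% of them, with a median of 6 over all promoters. Tdgf1 held 7 and Smad3 held 22. The windows of the ligand genes that moved in opposite directions are printed with each CG in capitals, Nodal from chr10:61417722-61417971 on the plus strand and Inhbb from chr1:119422249-119422498 on the minus strand. The arrays did not measure methylation.
Nodal upstream: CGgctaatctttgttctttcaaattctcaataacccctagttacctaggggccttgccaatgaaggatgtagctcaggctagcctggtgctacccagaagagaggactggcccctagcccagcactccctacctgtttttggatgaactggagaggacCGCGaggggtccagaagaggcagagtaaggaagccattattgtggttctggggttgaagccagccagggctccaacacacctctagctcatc
Inhbb upstream: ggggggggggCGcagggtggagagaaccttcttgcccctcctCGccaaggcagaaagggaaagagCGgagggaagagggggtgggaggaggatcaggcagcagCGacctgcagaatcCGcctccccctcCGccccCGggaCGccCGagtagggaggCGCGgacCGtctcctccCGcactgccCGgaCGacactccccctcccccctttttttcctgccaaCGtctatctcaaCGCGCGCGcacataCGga
The short Smad-binding sequence CAGAC, searched on both strands, occurred in these 250 bases upstream of Tdgf1 and not of the other 3 genes, and 42.2% of all promoters hold it. The Foxh1-binding sequence AATNNACA, with each N either A or C and searched on both strands, occurred in 3.93% of all promoters and in the window of none of the 4 genes.

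Both Lefty genes rose. The Lefty proteins are secreted inhibitors that bind Nodal and its coreceptor. Lefty1 (probe A_51_P354706) read 3.45, 3.52 and 3.68 in TKO dishes, against 0.43, 0.45 and 0.60 in WT dishes. That difference of 3.06 ± 0.0807 (SE; limma adjusted p = 5.87e-06) was an 8.33-fold rise, the largest among the 9 genes. Lefty2 (probe A_66_P136102) read 3.52, 3.53 and 3.70 in TKO dishes, against 1.58, 1.56 and 1.60 in WT dishes, a 4.02-fold rise (difference 2.01 ± 0.0598 SE, limma adjusted p = 7.84e-06). For both genes the lowest TKO dish lay far above the highest WT dish, by more than the spread within either group. The genes are close copies of each other and neighbours on chromosome 1, so the first 30 bases of their probes are shown. The full 60-base probes share no run longer than 5 bases, and they lie at 182868137 to 182868196 (Lefty1) and 182828893 to 182828952 (Lefty2), both on the plus strand of mm9.
Lefty1 probe: ctttcatgcaaatctgaagtgctcattata
Lefty2 probe: aagggtgtacctgagtctttctggccattg

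The probes of Tdgf1, the coreceptor that Nodal needs, disagreed in direction. The brightest probe (A_55_P2183147) read 3.75, 3.66 and 3.73 in TKO dishes, against 4.75, 4.81 and 4.74 in WT dishes, a 2.07-fold fall (difference -1.05 ± 0.0442 SE, limma adjusted p = 2.2e-05). A second probe (A_55_P2058540) read 2.30, 2.14 and 2.18 in TKO dishes, against 3.05, 3.01 and 3.01 in WT dishes, a fall of 1.77-fold (difference -0.82 ± 0.0538 SE). These probes put every TKO dish below every WT dish. The third probe (A_55_P1968028) went the other way. It read 4.78, 4.56 and 4.63 in TKO dishes, against 2.59, 2.47 and 2.39 in WT dishes, a 4.52-fold rise (difference 2.17 ± 0.0808 SE, limma adjusted p = 1.5e-05). All 3 lie within 437 bases of chromosome 9 on the minus strand (mm9), at 110843099 to 110843158, 110842866 to 110842925 and 110842722 to 110842781. When the 3 probes were averaged, the difference of Tdgf1 was 0.10 (limma adjusted p = 0.16), so the direction given for this gene rests on the choice of probe.

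The sequences of the Tdgf1 probes are shown because they set the third apart. Capitals mark 12-base words that also occur in 5 or more other probes of the array, and 30 bases of each 60-base probe are given (bases 22 to 51 of the third, the first 30 of the others).
Tdgf1 A_55_P2183147: tgatgctcacagtgaatccctaatgttacc
Tdgf1 A_55_P2058540: gttattattaaatcccagtgtgcaactgga
Tdgf1 A_55_P1968028: gggagaaaAAAGAGAGAGAGAGAAGAAAAA
The third probe holds a purine-rich GA repeat. It shared a 12-base word on the same strand with 78 other probes, against 11 for each of the other Tdgf1 probes and 6 to 44 for the remaining probes of these genes. Of those 78, 61 were tested, with 13 called higher, 8 lower and a median difference of 0.08. The part of the repeat in the rise of this probe was not tested.

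Smad3, the transducer that the receptors phosphorylate, fell slightly by its bright probe. That probe (A_55_P2101001, chromosome 9, 63494574 to 63494633, mm9) read 1.82, 1.55 and 1.59 in TKO dishes, against 1.95, 2.05 and 2.02 in WT dishes, a fall to 78.4% of the WT level (difference -0.35 ± 0.0837 SE, limma adjusted p = 0.0145). The groups did not overlap, but TKO replicate 1 lay only just below the WT dishes. The call ended without WT replicate 2 (limma adjusted p = 0.0514), with the replicate number as a block (0.0526) and with the array row on the slide as a block (difference -0.18, 0.0808). A dim second probe (A_51_P441022) was well above background on 1 TKO and 3 WT arrays, and its difference of -0.69 ± 0.249 (SE) was not called (limma adjusted p = 0.0591).

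Foxh1, the forkhead factor that brings Smad complexes to Nodal and Lefty genes, rose. Its probe (A_55_P1973578, chromosome 15, 76498767 to 76498826, minus strand of mm9) read 1.40, 1.39 and 1.45 in TKO dishes, against 0.65, 0.66 and 0.72 in WT dishes. The groups were separated by many times their spread, and the rise was 1.66-fold (difference 0.73 ± 0.0409 SE, limma adjusted p = 5.52e-05). The probe of the gene Kifc2 lies 200 bases away on the other strand and went the other way (difference -0.88 ± 0.0841 SE, limma adjusted p = 0.0004).

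The intracellular inhibitors split. Smad7, the inhibitory Smad that targets activated receptors, read 1.44 in each of the 3 TKO dishes, against 2.39, 2.39 and 2.42 in WT dishes (probe A_51_P403636, chromosome 18). It fell to 51.5% of the WT level (difference -0.96 ± 0.0341 SE, limma adjusted p = 1.32e-05). Skil (also called SnoN), a corepressor that binds Smad complexes, rose by both of its probes. The probe A_51_P118132, printed at 10 spots on each array, read 2.86, 2.61 and 2.74 in TKO dishes, against 2.00, 2.04 and 1.99 in WT dishes, a 1.65-fold rise (difference 0.72 ± 0.0715 SE, limma adjusted p = 0.000455). Its 10 spots within an array had SDs of 0.0478 to 0.0669 on the log2 scale, and the highest WT spot (2.12) lay below the lowest TKO spot (2.52). The second Skil probe (A_52_P597461) gave a 1.86-fold rise (difference 0.89 ± 0.0563 SE, limma adjusted p = 8.39e-05). Genes known as targets of the same pathway did not all move one way, with Nodal, Lefty1, Lefty2 and Skil higher and Smad7 lower in TKO.

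**Figure D2:**
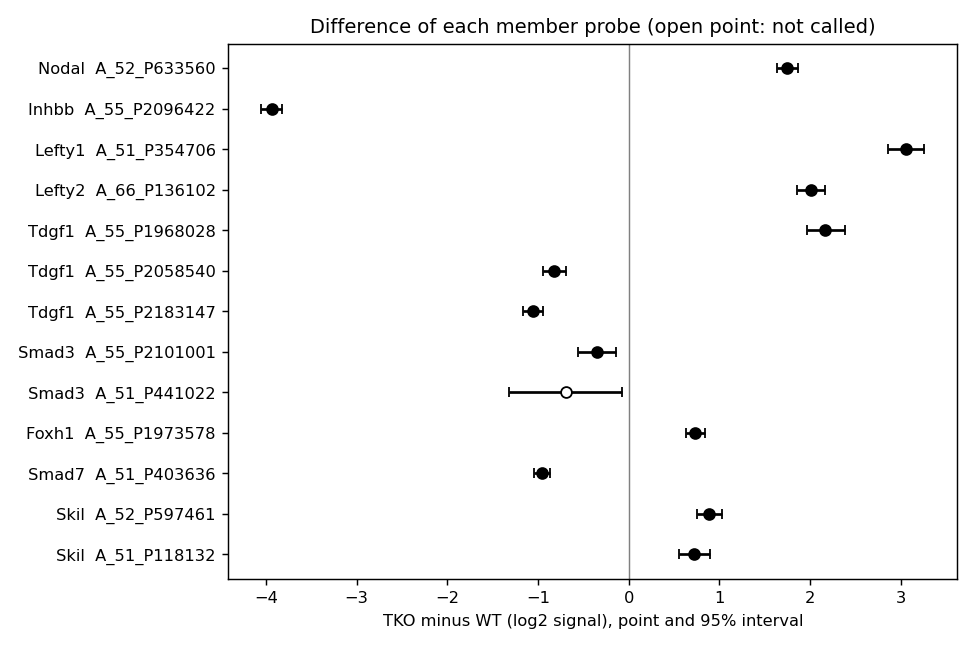
Difference between TKO and WT (x axis, log2 signal) for each probe, with the 95% interval from limma, unadjusted. Filled points passed the threshold. Inhbb lies at -3.93 and Lefty1 at 3.06, and the 3 Tdgf1 probes fall on both sides of 0.

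Nodal and Inhbb lie where many neighbours differed. Within 2.5 Mb on either side of the Nodal probe, 72 other genes had a median difference of 0.61, 46 of them called higher and 10 lower. The median over the 969 other genes of chromosome 10 was -0.01, and 29.4% of all tested genes were called higher and 28.9% lower. The knocked-out gene Tet1 lies in this window, 1.39 Mb from the Nodal probe, and differed by -1.37. Unnamed transcripts beside Tet1, at 1.3795 to 1.3815 Mb from the Nodal probe, differed by -1.09 to -1.41. Others on the far side of Tet1, at 1.4613 to 1.4731 Mb, differed by -0.29, 1.09 and -0.41. Nodal exceeded the median of its window, and 4 of the 72 genes had a difference at least as large. Around Inhbb, 28 genes had a median of -0.69, with 2 called higher and 19 lower, and the median of chromosome 1 was -0.12. None of those 28 fell as far as Inhbb. Its nearest tested gene, Ralb, differed by -1.11 ± 0.0541 (SE). The part of such regional shifts in the Nodal and Inhbb differences was not tested.

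The Lefty genes lie on the same chromosome as Inhbb, in a stretch with no such shift. The 54 other tested genes within 2.5 Mb of Lefty1, Lefty2 among them, had a median difference of -0.02, with 12 called higher and 10 lower, and the interquartile range ran from -0.21 to 0.15. Within 100 kb of Lefty1, 5 tested genes beside Lefty2 were found, a window chosen after the values were seen. Among them, Tmem63a rose by 0.91 ± 0.0625 (SE). A non-coding RNA probe on the reverse strand rose by 1.59 ± 0.408 (SE), whereas Sde2 (0.12) and Ephx1 (-0.02) were not called. Around Tdgf1, Smad3, Foxh1, Smad7 and Skil the medians of the 2.5 Mb windows lay between -0.06 and 0.04.

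**Figure D3:**
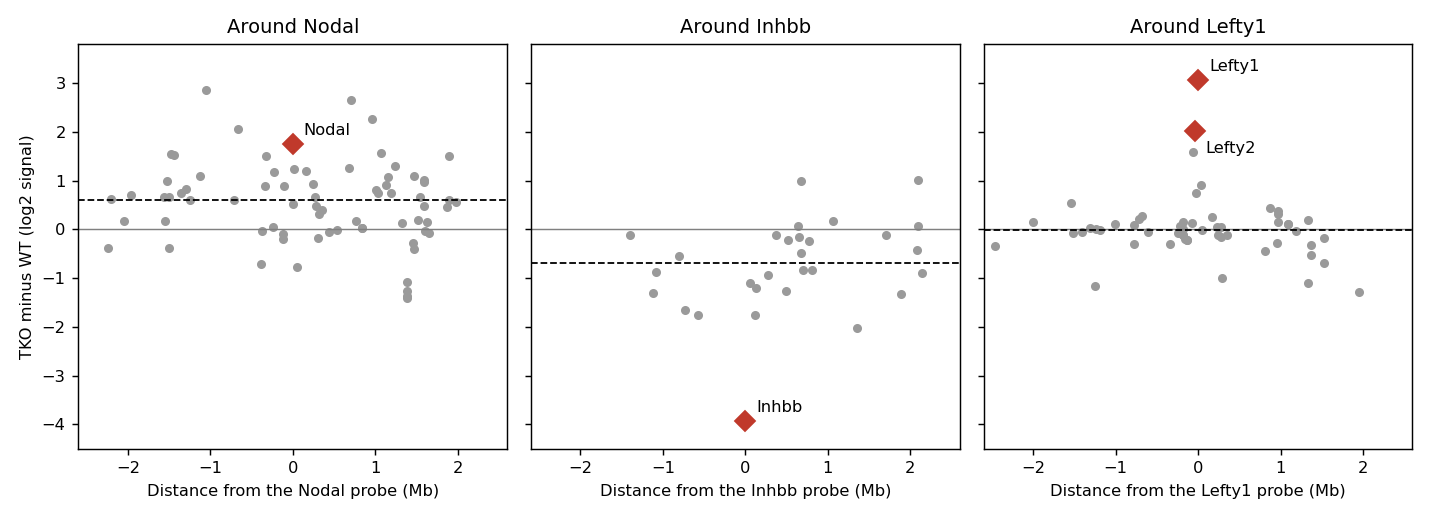
Difference between TKO and WT (y axis, log2 signal) of each tested gene by its distance (x axis, Mb) from the probe of Nodal, Inhbb or Lefty1. Red diamonds are the named pathway genes and dashed lines the medians of the other genes, 0.61 around Nodal and -0.69 around Inhbb, with nearly 0 around Lefty1.

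The other genes of the Nodal, activin and TGF-beta pathway were read from a list of 40, of which 35 were tested by their brightest probe. Of these, 18 were called higher, 9 lower and 8 not called, with a median difference of 0.29. Over all 21563 tested genes, 58.3% were called, 29.4% higher and 28.9% lower, with a median of -0.008. Among ligands, 5 of 9 tested genes were higher and 3 lower. Inhba, the gene of the activin beta A subunit, read 0.85, 0.91 and 0.86 in TKO dishes, against -0.33, -0.70 and -0.40 in WT dishes, and rose 2.55-fold (limma adjusted p = 0.000162) where Inhbb fell. Tgfb2 rose 2.11-fold (1.08 ± 0.145 SE), or 0.58 on the log2 scale with normexp. Fibroblasts also express Inhba and Tgfb2, and the feeder markers given above were higher in TKO; their part in these rises was not tested. Inhbc, the activin beta C subunit gene, rose by 2.53 ± 0.123 (SE), but 1 of 3 WT arrays measured it well above background and normexp background correction gave 0.69. Tgfb1 fell 3.46-fold (-1.79 ± 0.045 SE, limma adjusted p = 5.23e-06), or by 1.18 on the log2 scale with normexp. Inha, the inhibin alpha subunit gene, fell by 0.62 ± 0.154 (SE), a call that ended without WT replicate 2 (limma adjusted p = 0.0519) and with array row as a block (-0.32, 0.106).

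Of the 7 tested receptor and coreceptor genes, 3 were called higher and 3 lower, where 29.4% of all tested genes were called higher and 28.9% lower. The type I receptor gene Acvr1b, which serves Nodal and activin, fell by 0.57 ± 0.0451 (SE) and the type II receptor gene Acvr2b rose by 0.47 ± 0.0549 (SE). The TGF-beta receptor genes Tgfbr1 (-0.44 ± 0.0501 SE) and Tgfbr2 (-0.47 ± 0.0501 SE) fell, Tgfbr2 by 0.72 with the mean of its probes, and Tgfbr3 rose by 0.55 ± 0.0783 (SE), or 0.32 with normexp. Acvr2a read -2.47, -0.68 and -2.35 in TKO dishes, against -2.59, -2.59 and -2.44 in WT dishes. Its difference of 0.71 ± 0.495 (SE) was not called (limma adjusted p = 0.274) and rested on TKO replicate 2, without which it was 0.13. Acvr1c was not well above background on any array. Cfc1 encodes Cryptic, a relative of Tdgf1 that also acts as a Nodal coreceptor. It read -1.63, -1.73 and -1.79 in TKO dishes, against -4.34, -3.90 and -4.29 in WT dishes, a 5.49-fold rise (2.46 ± 0.13 SE, limma adjusted p = 4.55e-05), or 1.16 on the log2 scale with normexp.

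Of the 7 tested genes that process ligands or inhibit them, 4 were called higher and 1 lower. For this count and the Smad count below, the shares over all tested genes were 29.4% higher and 28.9% lower. Pcsk6, the convertase PACE4 that cleaves the Nodal precursor, fell by 0.85 ± 0.0725 (SE), and Cer1 and Bambi were not well above background on any array. Of the 12 Smad and Smad regulator genes, 6 were higher and 2 lower. Smad4, the shared partner of activated Smads, fell by 0.32 ± 0.0409 (SE), and Smad2 (0.18 ± 0.0654 SE, limma adjusted p = 0.0661) was not called. Trim33, a ubiquitin ligase that binds Smad2 and Smad3 and regulates Smad4, rose 2.08-fold (1.05 ± 0.0373 SE, limma adjusted p = 1.3e-05).

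**Figure D4:**
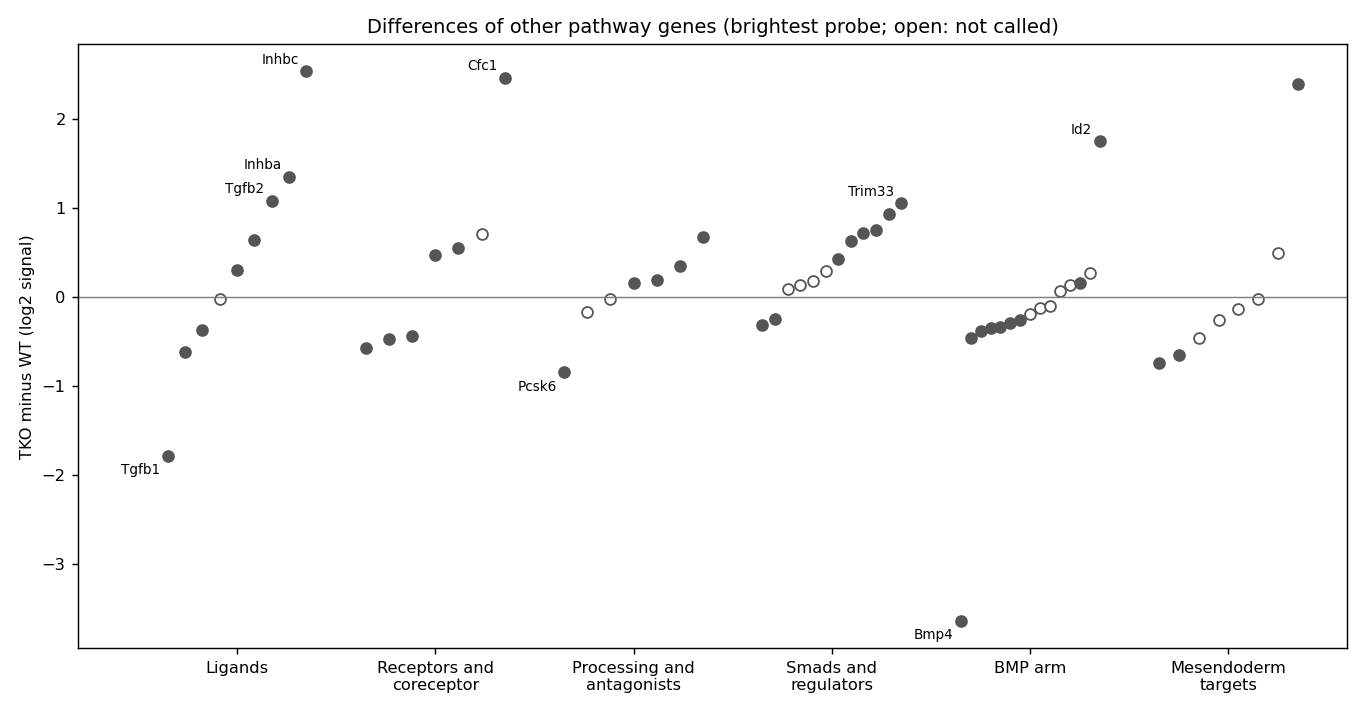
Difference between TKO and WT (y axis, log2 signal) of each tested gene in 6 lists, by its brightest probe. Filled points were called and open points not, and some genes at 0.8 or more in size are named. Bmp4 lies at -3.64, below all other genes shown, and the Inhbc and Cfc1 points lie above 2.

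The BMP arm of the superfamily, which signals through other Smads, had 15 tested genes, of which 2 were called higher and 7 lower (median -0.19). Over all tested genes, 58.3% were called, 29.4% higher and 28.9% lower, so the number of BMP calls was near that share. The 9 BMP calls became 5 without TKO replicate 2, WT replicate 2 or WT replicate 3, and 11 with quantile normalization. Bmp4, the ligand that supports self-renewal of mouse embryonic stem cells, read -0.65, -0.63 and -0.71 in TKO dishes, against 2.91, 2.95 and 3.07 in WT dishes, and fell 12.5-fold (-3.64 ± 0.0563 SE, limma adjusted p = 2.08e-06). The known BMP target genes of the Id family differed from each other. Id2 rose 3.37-fold (1.75 ± 0.0416 SE), Id1 fell by 0.35 ± 0.0762 (SE, limma adjusted p = 0.0104), and Id3 was not called (0.13 ± 0.131 SE). The inhibitory Smad gene Smad6 fell by 0.46 ± 0.093 (SE), a call that ended with array row as a block (-0.37, limma adjusted p = 0.0833). The receptor gene Bmpr1a rose by 0.16 ± 0.0483 (SE, limma adjusted p = 0.0332), a call that ended in 9 of 16 alternatives, over a range of differences from 0.11 to 0.24.

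Of 10 listed genes that Nodal and activin are known to induce in mesoderm and endoderm, 8 were tested, with 1 called higher and 2 lower (median -0.20). Of all tested genes, 29.4% were called higher and 28.9% lower. Eomes fell by 0.74 ± 0.0447 (SE) and Gsc by 0.65 ± 0.147 (SE), or by 0.33 for Gsc in the first array row alone. Mixl1 was not well above background on any array, and T on 2 TKO arrays and no WT array.

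The genes whose profile over the 6 arrays was closest to that of Nodal were Id2, Slc5a11, Evpl, Slmo1 and Fat2. The root mean square distance of their values, each relative to its own WT mean, was 0.0258 to 0.0362 on the log2 scale. Of 14019 genes compared, these 5 differed between TKO and WT by 3.30-fold to 3.47-fold, where Nodal had 3.37-fold. Choosing genes by this distance selects a fold close to that of Nodal, so the likeness in fold is no separate result.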

How the data were processed

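The arrays had 1 colour. The submitters' processing notes name Agilent Feature Extraction 11.5.1.1. The deposited mean, background and processed signals are intensity values on a linear scale, with positions on mm9, and spatial and multiplicative detrending was on, per the file headers. The deposited flags of 0 or 1 per spot are another unit (other). The authors' deposited value table appeared to hold log2 signals, with Pearson r of 1 against the scanner values across probes and column medians from -4.03 to -3.74. Its centring and scale are not given in the sources used here, and it served as an alternative.

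Control and outlier spots were left out, spots of a probe were averaged as log2, and the 75th percentile of each array was subtracted, with no pseudocount. Probes well above background on at least 3 of 6 arrays were kept (30735). TKO and WT were compared with limma 3.58.1 (lmFit, eBayes) in R 4.3.3, two-sided, with Benjamini-Hochberg adjustment over all kept probes. The script was tested on simulated data. Of 100 probes given a change of 0.5 on the log2 scale, 38 were called in the right direction. With a change of 1, 71 of 100 were, and 5 unchanged probes were called. A gene that was not called may thus still differ. The number of arrays limits the precision.

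Named genes were every probe of the 9 genes, the brightest probes of Tet1 to Tet3, the 5 largest called rises and falls of the pathway list, its receptors, Smad2 and Smad4, the 2 largest each way of the BMP and mesendoderm lists, and the 5 genes nearest to Nodal. Neighbouring genes were named after their values were seen. Id1 and Id3 were also named after their values were seen. Some genes that these choices would name are not reported here. The genes and lists were chosen with earlier results of these data known. Same-numbered TKO and WT arrays did not deviate together (correlations from -0.06 to 0).

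Alternatives were normexp background correction, quantile normalization, median centring, the deposited table, no filter, a filter on all 6 arrays, the mean of a gene's probes, leaving out each array, a block for replicate number or for array row, and row 1 by itself. Row 2 held TKO replicates 2 and 3. All 6 arrays were on 1 slide, so slide could not be tested.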

Additional observations from a re-analysis of the deposited data

How the results depend on the processing

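The directions of Nodal, Inhbb, Lefty1, Lefty2, Foxh1, Smad7 and both Skil probes held in every alternative run. Their calls held in every alternative with more than 1 TKO array. Lefty1 ranged from 2.86 to 3.11, Lefty2 from 1.94 to 2.04, Nodal from 1.70 to 1.79, Inhbb from -3.98 to -3.82 and Smad7 from -1.01 to -0.95. Tdgf1 turned to 0.1 when its 3 probes were averaged, because they differ in direction. The bright Smad3 probe lost its call in 4 of 16 alternatives, and the dim one gained it in 4 of 14. Of the 13 member probes, 11 to 13 were called in each alternative that kept probes separate. With replicate number as a block, 11 of them were called (main comparison 12), and 15740 of 30735 probes (main comparison 17536). Same-numbered samples did not deviate together, so no pairing by number was seen. With 3 arrays per group, this cannot show that the dishes were unpaired. With array row as a block, which leaves TKO replicate 1 against the WT arrays, 11 were called.

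The count of called BMP genes, 9 in the main comparison, was 5 with no filter and 5 to 8 when 1 array was left out. It rose to 10 with the mean of a gene's probes and to 11 with quantile normalization. The count was 5 without WT replicate 2, WT replicate 3 or TKO replicate 2. Called probes over the array numbered 14018 (array row as a block) to 18070 (normexp) among the alternatives at probe level with more than 1 TKO array. Signal over background limits the dim probes of Inhbc, Cfc1 and Smad3.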

Other observations

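Of 5 listed genes of the later, primed epiblast, Pou3f1, Zic2 and Sox3 were called higher and Otx2 lower, with Fgf5 treated apart below. Over all tested genes, 29.4% were called higher and 28.9% lower. Zic2 rose 8.13-fold and Pou3f1 2.30-fold, both transcription factors of the epiblast and nervous system. Fgf5 stood well above background on 0 of 3 WT arrays and passed the filter through the TKO arrays alone, so a call as higher was close to fixed. It was at least 10.7-fold higher in TKO dishes. This takes, for each WT array, the higher of its lowest well-above-background signal and the probe's own signal. Otx2, a factor of the same stage, differed by -1.39 ± 0.107 (SE). The 5 genes summed to 20.2 to 21.7 times the 75th percentile in TKO dishes and 18.1 to 18.4 times in WT dishes. This sum holds Fgf5, whose part in the difference was close to fixed.

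Of 6 listed trophoblast markers, 5 were tested. Cdx2 and Hand1 were well above background on 3 TKO arrays and 0 WT arrays, so they passed the filter through the TKO arrays alone and a call in that direction was close to fixed. The other 3 (Krt8, Krt18 and Gata3) were called higher in TKO dishes, where 29.4% of all tested genes were. The summed signal of all 5 was 27.6 to 28.4 in TKO dishes and 12.2 to 12.6 in WT dishes. Nearly all of it was keratin: Krt8 and Krt18 summed to 26.8 to 27.7 in TKO dishes and 12.1 to 12.5 in WT dishes. The sum of all 5 holds Cdx2 and Hand1, whose part in its difference was close to fixed. Gata3 rose 7.91-fold and Krt18, a keratin gene that other epithelia also express, 2.55-fold. Of 6 primitive endoderm markers, 3 were called higher and 2 lower, and their summed signal was 0.712 to 0.811 in TKO dishes and 0.65 to 0.693 in WT dishes. Of the 8 stem cell markers, 2 were called higher and 4 lower, with sums of 363 to 369 in TKO dishes and 423 to 448 in WT dishes. For the endoderm and stem cell counts, the shares over all tested genes were 29.4% higher and 28.9% lower. The part of these marker levels in the differences of the Nodal pathway genes was not tested.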
